A study of Equus caballus with 11 samples.

Results

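A total of 5643 CpGs were read on both DNA strands of horse heart, lung and liver, out of 3123176 CpGs listed on chromosomes 1 to 31 (0.181%). A CpG was included when its forward strand cytosine and the reverse strand cytosine 1 base further each had 10 or more reads in 2 or more libraries of each tissue. The rule used read depth only and no methylation value. The study used reduced representation bisulfite sequencing (RRBS), in which DNA is cut at CCGG and treated with bisulfite, so that a cytosine without a methyl group is sequenced as T and a methylated one as C. The methylation level is the percent of reads with C at a position. The samples came from 4 healthy, untreated cold-blooded stallions aged 1 to 2 years: left ventricle (heart) and the right lung's caudal lobe (lung) from horses 1, 2, 3 and 4, and the liver's right lobe (liver) from horses 1, 2 and 4. Whole pieces of tissue were used, so each level is a mean over the cell types of an organ. Liver of horse 3 was not analysed here, and tissue labels could not be checked against expression markers in methylation files.

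CpG is a palindrome, so each site carries a cytosine on either strand. After replication the new strand is unmethylated, and the maintenance methyltransferase DNMT1, guided by UHRF1, which binds hemimethylated CpGs, copies methylation onto it. Most CpGs are therefore methylated or unmethylated on both strands in a given cell. A CpG methylated on a single strand is called hemimethylated. In bisulfite data the strands are read from separate reads, and a strand that carries T from a base variant is also read as unmethylated. The deposited values give read numbers and percents but no bases or read ends, so hemimethylated DNA, base variants and effects of library preparation cannot be told apart here. The positions are in EquCab3.0, and the sequences around the sites are not shown because the genome was not used here.

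Reads summed over all listed positions spanned 3255257 (liver, horse 2) to 25109840 (liver, horse 1). The number of included CpGs with 10 reads on either strand ranged from 1578 to 5631 in the same libraries, and 1192 CpGs had this depth in all 11 libraries. Median depth at these CpGs was 19 to 38 reads per strand. Reads covering a CpG may be PCR copies, so all counts of reads overstate the number of molecules. No library pair of a tissue was alike within sampling noise (chi-square per degree of freedom 1.51 to 3.19 over 15 pairs).

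The included CpGs lay closer together than others. A median of 10 other listed CpGs lay within 100 bp, and 62.4% had another included CpG within 75 bp. The median was 3 for the 267134 CpGs that had the same depth on at least 1 strand but did not meet the rule on both. Neighbouring sites hence share reads and are not independent. Averaged over both strands, heart had a level of 70.9% ± 0.927 (SD over 4 libraries), lung had 72.0% ± 0.506 (4 libraries) and liver had 72.7% ± 0.704 (3 libraries). The other CpGs had 68.7% ± 0.542, 69.4% ± 0.236 and 68.9% ± 0.974, lower in 11 of 11 libraries. The included sites were thus CpG-dense and mostly methylated, with 55% to 61.4% of them at a level of 80% or above in a library and 10.3% to 12.6% at 20% or below.

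The first question was how closely the strands match. Over the included sites of a library, the levels of the strands had a Pearson correlation of 0.856 (lung of horse 3) to 0.894 (lung of horse 2), which is across sites that share a library and its depth. The median absolute difference between the strands was 5.04 to 6.81 percentage points per library. A difference of 50 points or more was seen at 0.951% to 2.01% of sites. The mean difference between the strands was under 1 point in size in every library, as forward minus reverse averaged 0.109 ± 0.307 points for heart, -0.0152 ± 0.225 for lung and 0.393 ± 0.284 for liver. Most sites were near-symmetric in every library, and a small share stood far from the diagonal in the plot of both strand levels.

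**Figure D1:**
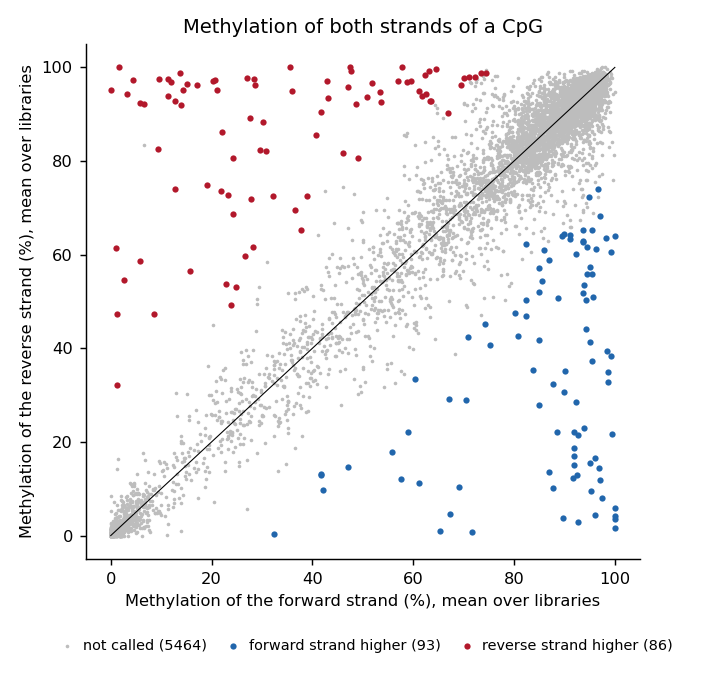
Methylation of the forward strand (x axis, %) and of the reverse strand (y axis, %), each the mean over the libraries with 10 reads on either strand. Points are the 5643 CpGs, and colours mark the 93 sites called with the forward strand higher and the 86 with the reverse strand higher. The grey points follow the line of equal levels.

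Strand symmetry was compared between tissues over the 1192 sites read in all libraries. The measure was the root mean squared difference between the strands after subtraction of the binomial sampling variance, named depth-corrected difference below. Heart had 9.02 ± 0.230 points (4 libraries), lung 8.69 ± 0.223 (4 libraries) and liver 8.51 ± 0.913 (3 libraries). In heart the libraries of horses 1 to 4 had 8.68, 9.16, 9.14 and 9.12 points, and in lung 8.73, 8.64, 8.42 and 8.96. In liver horses 1, 2 and 4 had 8.61, 7.56 and 9.37. The ranges of the tissues overlapped. Mean forward minus reverse over these sites was 0.529 ± 0.138 for heart, 0.319 ± 0.275 for lung and 0.598 ± 0.253 for liver, above 0 in every library but lung of horse 4, and these ranges overlapped as well. None of the 6 comparisons between tissues passed an exact two-sided permutation test over libraries (p = 0.0857 to 0.714, adjusted p = 0.514 to 0.714, smallest possible p = 0.0286). The lung minus heart value of the depth-corrected difference, -0.335 points, was 0.851 when each library's own sites were used, and lung minus liver, 0.175 points, was -0.304 without liver of horse 2.

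The difference between strands was then set beside that between animals and organs, measured the same way on the same sites. The strands of 1 library differed by a median of 8.73 points (7.56 to 9.37 over 11 libraries). The same strand in 2 horses of a tissue differed by a median of 9.14 points (4.65 to 13.9 over 30 comparisons). The same strand in 2 tissues of a horse differed by 6.33 points (4.87 to 14 over 20 comparisons), and when both tissue and horse differed, by 10.6 points (6.97 to 15.5 over 60 comparisons). Only 12 of the 1192 sites were called strand-discordant, as defined below, and without them the strands differed by a median of 5.87 points. The median between horses was then 9.16 points and that between tissues of a horse 6.24 points, so leaving out these 12 sites lowered the strand value most. These sites were chosen for their strand difference, and the values without them are a description.

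**Figure D2:**
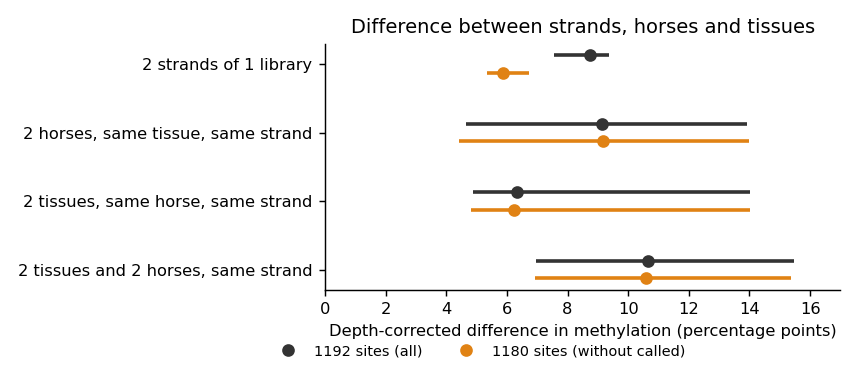
Depth-corrected difference in methylation (x axis, percentage points) between the strands of a library, between horses, between tissues, and between both. Points are medians, lines run from the lowest to the highest comparison, and colours show the 1192 sites read in all libraries and the 1180 without those called. The strand value falls from 8.73 to 5.87 points when the called sites are left out.

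Strand differences recurred across libraries. Over the 1192 sites, forward minus reverse of 2 libraries correlated with a mean r of 0.525 for libraries of 1 horse (0.414 to 0.693, 10 pairs), 0.478 for libraries of 1 tissue (0.337 to 0.620, 15 pairs) and 0.467 for libraries that shared neither (0.331 to 0.606, 30 pairs). Without the called sites the means were 0.330, 0.266 and 0.252. These are correlations across sites that share reads, given as a description.

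Sites with a strand difference common to the horses were sought next. Reads were summed over the tissues of a horse, and strand was tested with the horse as the replicate. At an adjusted p below 0.01 and a mean difference of at least 25 points, 179 of 5643 CpGs were called strand-discordant (3.17%), 93 with the forward strand higher (1.65%) and 86 with the reverse strand higher (1.52%). The median absolute difference of the called sites was 46.3 points, and that of all 5643 sites 2.88 points. The count was 180 without the shallowest library, liver of horse 2, and 46 of the 1940 sites left when 20 reads were required, 44 of them among the 179. When all 19780 CpGs read on both strands in 2 or more horses were fitted and adjusted together, 95 were called (0.48%), of which 69 were among the 179. These 69 had a median difference of 75.2 points, and the 110 called in the first fit alone had 36.3 points. Of the 14137 CpGs with fewer libraries, 26 were called (0.184%).

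The called sites covered a wide range of lower-strand levels. The median level was 92.5% on the higher strand and 30.8% on the lower strand. At 37 sites the higher strand was at 80% or above and the lower at 20% or below, at 30 the lower strand was over 20% and under 40%, at 37 it was 40% to 60%, and at 34 it was over 60%. The higher strand was under 80% at the remaining 41 sites. A difference of 50 points or more was found at 80 sites, of 75 points or more at 37 and of 90 points or more at 9, with similar numbers in either direction (40 and 40, 19 and 18, 5 and 4).

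The called differences were shared by the organs. All 179 had a mean difference of the same sign in heart, lung and liver, 140 of them with at least 25 points in all 3 tissues, and 163 (91.1%) had the same sign in every library, against 7.04% of all included sites. Sign in single libraries is part of what the test used, so these counts describe the calls. At 146 of the 179 sites no library of 1 strand overlapped any library of the other, which held for 191 of all 5643 sites. The median difference toward the higher strand was 48.2 points in heart, 45.5 in lung and 46.7 in liver.

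The called site with the largest difference among those read in all 11 libraries was chr3:37349981. Its forward strand was at 100% in all 11 libraries. Its reverse strand was at 9.09%, 0%, 3.03% and 0% in heart of horses 1 to 4, at 1.69%, 1.89%, 0% and 3.23% in lung, and at 1.43%, 15.4% and 10% in liver of horses 1, 2 and 4. The strands were thus nearly opposite in every animal and organ, on 338 forward and 454 reverse reads (96.5 ± 1.71 points, SD over n = 4 horses, adjusted p = 1.48e-15 by the moderated quasi-likelihood test). Coverage of 1 of its strands stepped up at this site, as described below. At chr8:2181693 the forward strand was at 88.0% to 100% in heart, 86.1% to 100% in lung and 80.7% to 95.7% in liver. The reverse strand was at 0% to 8.11%, 0.595% to 9.68% and 0% to 6.67%, so no library overlapped (89.6 ± 0.720 points, adjusted p = 3.77e-13).

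The next 3 sites with the forward strand higher had a partly methylated reverse strand. At chr2:49006138 the forward strand was at 83.3% to 100% and the reverse strand at 3.39% to 30% over the 11 libraries (80.9 ± 3.68 points, adjusted p = 1.39e-10). At chr26:17673 the forward strand was at 76.2% to 100% and the reverse strand at 20.4% to 41.1% (63.1 ± 4.28 points, adjusted p = 1.68e-09). The fifth site, chr2:49052672, had 75% to 97.7% on the forward strand and 24.6% to 37.6% on the reverse strand (60 ± 1.56 points, adjusted p = 1.88e-09). Neither strand of these 3 sites overlapped the other in any library. These 5 sites were also called in the fit over 19780 CpGs.

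Only 4 sites with the reverse strand higher met the rule for naming, with SDs over horses of 4.15 to 15.3 points. At chr3:37135100 the reverse strand was at 79.2%, 93.8%, 83.3% and 96.6% in heart of horses 1 to 4, and the forward strand at 5.06%, 39.5%, 33.3% and 23.7%. In lung the reverse strand was at 31.2%, 93.9%, 75% and 87.5% and the forward strand at 5.45%, 62.1%, 27.3% and 13.6%. In liver of horses 1, 2 and 4 the reverse strand was at 81.1%, 89.3% and 95.9% and the forward strand at 20.4%, 73.9% and 21.8%. Lung of horse 1 was low on both strands there, and the forward strand of horse 2 was the highest of its organ in all 3 organs (-55.9 ± 15.3 points, adjusted p = 1.24e-07). At chr8:2179962 the reverse strand stayed at 91.7% to 100%, whereas the forward strand ranged from 11.1% in lung of horse 1 to 68.0% in heart of horse 1 (-50.1 ± 12.8 points, adjusted p = 1.14e-07). That site had 269 forward and 1621 reverse reads.

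The other sites of this group were less lopsided. At chr13:23754549 the reverse strand was at 32.4% to 62.8% and the forward strand at 0% to 21.4% (-38.9 ± 4.15 points, adjusted p = 7.11e-07). At chr26:63751 the reverse strand was at 90.2% to 100% and the forward strand at 60.8% to 79.3% (-26.2 ± 5.13 points, adjusted p = 1.44e-05). The difference at chr26:63751 was -24.6 points without horse 1 and just under 25 points in size without horse 2, so it was not called in either case. Of these 4 sites, chr13:23754549 alone was called in the fit over 19780 CpGs.

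**Figure D3:**
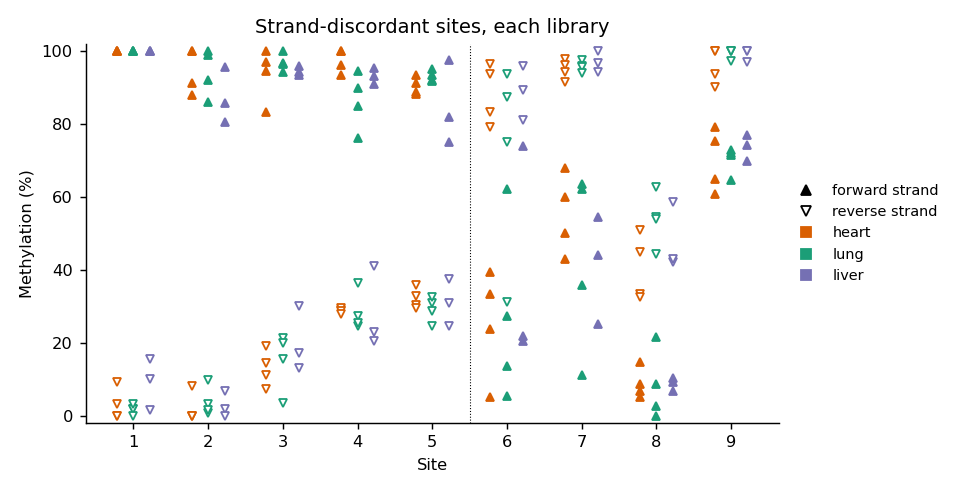
Methylation (y axis, %) of the forward strand (filled, pointing up) and reverse strand (open, pointing down) in each of the 11 libraries, coloured by tissue. Sites 1 to 9 are chr3:37349981, chr8:2181693, chr2:49006138, chr26:17673, chr2:49052672, chr3:37135100, chr8:2179962, chr13:23754549 and chr26:63751. Forward and reverse symbols are apart at sites 1 to 5 in every library.

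Differences of over 90 points were also found at sites read in fewer libraries, named here after their values were seen. At chr2:49060697 the reverse strand was at 100% in all 9 libraries and the forward strand at 0% to 11.1% (-98.9 ± 1.81 points, n = 4 horses). At chr8:33350870 the forward strand was at 100% in all 7 libraries and the reverse strand at 0% to 6.25% (97.9 ± 2.95 points). At chr8:2171464 the forward strand was at 100% in 9 libraries and the reverse strand at 0% to 20% (96.9 ± 1.81 points). At chr2:108399351 it was at 100% in 7 libraries, with 2.86% to 9.30% on the reverse strand (94.1 ± 2.68 points). A strand fixed at 100% beside a strand near 0% was therefore seen in both directions and on several chromosomes.

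Within single tissues the same test, with the horse as replicate, called fewer sites. In heart 36 of 5643 CpGs were called (0.638%), 21 with the forward and 15 with the reverse strand higher. In lung 66 were called (1.17%), 34 and 32. In liver, with 3 horses, 0 were called (0.0%), while 343 had an unadjusted p below 0.05 in the limma-moderated test, and 35 were called when 20 reads were required. The heart and lung lists shared 32 sites, 88.9% of the heart list and 48.5% of the lung list. All heart and all lung sites were among the 179, whose test used the same heart and lung reads. The heart count was 0 without horse 1, 2 or 3 and 6 without horse 4, and the lung count was 0 without horse 1 or 2, 15 without horse 3 and 53 without horse 4.

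A change of the strand difference between organs was tested directly. For lung versus heart, lung versus liver and heart versus liver, 0 of 5643 CpGs were called (0.0% each). The lowest adjusted p was 0.904, 1 and 0.989, and 227, 177 and 173 sites had an unadjusted p below 0.05. With the strand difference of each horse fitted as a block, 0 were called in each comparison as well. The site with the lowest p for lung versus heart, picked after the values were seen, was chr8:2156305, with forward minus reverse of 44.7 and 57.4 points in heart of horses 1 and 2, and 80, 72.7 and 75 points in lung of horses 1, 2 and 3. Its liver values, 71.8 and 58.3 points in horses 1 and 4, lay between those of the other organs (adjusted p = 0.904 by the limma-moderated test). The strand difference changed by 25 points or more between tissue means at 108, 128 and 133 sites, 14, 14 and 11 of them among the 179, without passing the test.

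A change of the strand difference between horses was called at 1 of 5619 CpGs (0.0178%), while 270 had an unadjusted p below 0.05. At this site, chr8:2149314, the forward strand was at 92.7% to 100% in all 11 libraries. The reverse strand was at 76.1%, 79.6% and 86.7% in heart, lung and liver of horse 1, and at 73.5%, 72.6% and 64.3% in horse 2. It was at 88.2% and 97.1% in heart and lung of horse 3, and at 93.8%, 88.2% and 93.8% in heart, lung and liver of horse 4. Horses 1 and 2 were thus lower on the reverse strand than horses 3 and 4 in heart and lung, and lower than horse 4 in liver. Mean forward minus reverse was 19.2, 29.9, 3.04 and 6.43 points in horses 1 to 4 (adjusted p = 0.00782). The call was lost when any 1 library was left out (adjusted p = 0.0240 to 0.175), and the site was deep, with 4337 forward and 701 reverse reads.

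Called sites were unevenly placed. The 5643 sites fell in 1098 windows of 1 Mb, and 7 of these windows held 107 of the 179 called sites (59.8%) and 20.1% of all included sites. The share called was 9.42% in these 7 windows and 1.60% elsewhere. They were the windows at 2 Mb of chromosome 8 with 28 called of 314 sites, at 49 Mb of chromosome 2 with 20 of 294, at the starts of chromosomes 28, 26 and 20 with 15 of 117, 14 of 168 and 13 of 114, at 23 Mb of chromosome 13 with 10 of 65, and at 67 Mb of chromosome 1 with 7 of 64. Of the 22 windows with 50 or more included sites, 10 held no called site, and these 10 contained 1169 included sites. By the number of listed neighbours, 1.07% of sites were called with 0 to 4 listed CpGs within 100 bp, 3.28% with 5 to 9, 5.72% with 10 to 14 and 2.37% with 15 or more, so the share did not rise steadily with crowding. The windows were chosen after the calls were known, and no test was made.

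The first 1 Mb of chromosomes 14 to 31, which are acrocentric in the horse, held 51 called of 510 included sites. Of all included sites 3.17% were called. The span includes the windows of chromosomes 20, 26 and 28 named above, with 13 called of 114, 14 of 168 and 15 of 117 sites. Most of its called sites thus lay on these 3 chromosomes. The median depth over both strands was 70.7 reads per library at called sites and 63.3 at the others. The share with 70% or more of its reads on 1 strand was 34.6% at called and 23.2% at other sites, and at 41 of the 62 called sites of this kind the deeper strand was the more methylated. The part of depth in the calls was not tested.

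There were 5 runs of called sites in 1 direction, 2 with the forward strand higher and 3 with the reverse strand higher (3 or more called sites no more than 200 bp apart). At chr8:14316423-14316451 the forward strand was called higher at 6 of 9 included sites. Over these 6 sites the mean forward level was 81.7% to 95.4% over 8 libraries and the mean reverse level 55.1% to 63.7%. The sites of this stretch that were not called had mean forward minus reverse over horses of -38.6, 2.14 and 16.0 points. The first of them, chr8:14316432, thus had the reverse strand higher. The other run with the forward strand higher, chr13:23761170-23761206, held 5 called of 7 included sites. The study's site annotation places its last called site, chr13:23761205, in an intron of ENSECAG00000003546. The mean levels of its called sites were 46.4% to 59.4% on the forward strand and 6.67% to 25.8% on the reverse strand over 10 libraries. This makes it a run of low and intermediate methylation. Its sites that were not called had 19.3 points at chr13:23761172 and, in the other direction, -14.4 points at chr13:23761177.

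The run with the most sites higher on the reverse strand was chr24:23680850-23680900, 5 called of 9 included sites. Over 7 libraries the mean forward level of the called sites was 6.67% to 24.7% and the mean reverse level 63.6% to 79.0%. Its most lopsided site was the last, chr24:23680899, where the forward strand was at 0% in all 6 libraries and the reverse strand at 86.7% to 100%. The forward strand had 115 reads there, and 0 of 115 allows a level of up to 2.61%. The 4 sites of this stretch of 51 bp that were not called had mean forward minus reverse over horses from -7.22 points at chr24:23680869 to 10.4 points at chr24:23680881. At chr13:23756730-23756743, 4 of 4 included sites were called, with mean levels of 12.7% to 44.0% on the forward and 48.9% to 66.2% on the reverse strand over 10 libraries. In lung of horse 4 the strands of this run were close, at 44.0% and 48.9%.

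Called sites also occurred in mirrored pairs. Of 78 pairs of called sites within 200 bp, 55 had the same direction, 19 had the forward strand higher at the first and the reverse strand higher at the second site, and 4 had the opposite order. The order of directions at a spacing of 13 bp was noticed after the values were seen: 8 pairs of called sites on 7 chromosomes were 13 bp apart, and 7 of them were in the order forward higher, then reverse higher. A spacing of 3 bp was as common, with 8 pairs, of which 1 had this order and 6 had the same direction. In all, 238 pairs of included sites were 13 bp apart. At chr2:49099996 the forward strand was at 93.3% to 100% and the reverse strand at 1.89% to 13.8% over 8 libraries. At its second site, chr2:49100009, the forward strand was at 0% to 9.52% and the reverse strand at 91.3% to 100%. The level read on each strand thus changed from high to low, in opposite directions, within 13 bp. In this pair forward coverage stepped up at the first and reverse coverage at the second site, as described below. The same was recorded for the pairs starting at chr19:2408100 and chr25:153632, 3 of the 8 pairs in all.

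The pair starting at chr19:2408100 behaved alike in 10 libraries. Its first site had 80% to 100% on the forward and 5.21% to 29.4% on the reverse strand, and its second site, chr19:2408113, had 0% to 21.7% and 91.8% to 100%. The pair on chromosome 25 had 91.8% to 100% and 2.08% to 9.38% at chr25:153632, and 0% to 20% and 91.9% to 100% at chr25:153645. The pairs starting at chr20:64537, chr28:110993, chr8:2156305 and chr9:37240997 had mean forward minus reverse of 65.1, 67.4, 65.8 and 57.0 points at the first site. At the second site the values were -91.5, -80.4, -56.4 and -49.9 points. The pair at chr8:2181680 was the exception, with 34.4 and 89.6 points.

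Differences went with steps in strand coverage. Where reads of a strand begin, its depth rises from 1 listed CpG to the next in the reading direction. A step was recorded, by a definition made after the data were seen, when the nearest listed CpG upstream on that strand lay within 40 bp and had under 20% of the reads. Of the 4108 sites with neighbours in this range on both sides, 161 were called. Among 673 sites with a step on both strands, 1 was called (0.149%), and the central 90% of sites had forward minus reverse of -7.74 to 8.12 points. Among 3069 sites with no step, 103 were called (3.36%). Among 366 sites with a step on 1 strand, 57 were called (15.6%), and at 53 of these the strand with the step was the higher one.

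The direction followed the side of the step. With a step on the forward strand alone, 20 of 173 sites were called, all 20 with the forward strand higher. With a step on the reverse strand alone, 37 of 193 were called, 33 with the reverse strand higher. In single libraries the strand with the step was higher by a mean of 6.26 points (heart of horse 4) to 12.4 points (heart of horse 1), in 11 of 11 libraries. The median was smaller, 0.813 points (liver of horse 2) to 3.77 points (heart of horse 1). The depth-corrected difference between strands was 21.7 to 31.3 points at sites with a step on 1 strand, 7.82 to 12.2 points with no step and 3.35 to 5.87 points with steps on both, and these ranges did not overlap. Of the 69 sites called in both fits, 43 had a step on 1 strand, 41 of them on the higher strand. Of the 110 called in the first fit alone, 14 had one. Other distances and thresholds gave 12.8% to 18.4% called at sites with a step on 1 strand. What lies behind the relation of coverage steps and strand differences was not tested.

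**Figure D4:**
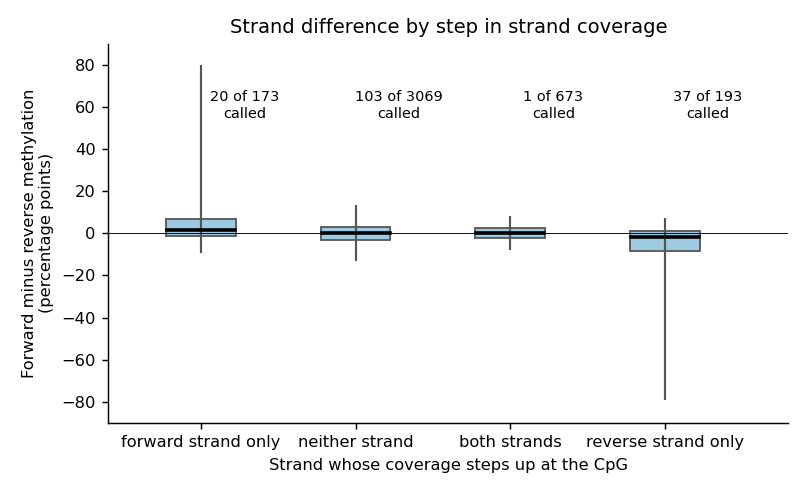
Mean forward minus reverse methylation (y axis, percentage points) for sites grouped by the strand whose coverage steps up at the CpG (x axis). Boxes span the quartiles, thick lines are medians, and thin lines run from the 5th to the 95th percentile. Called sites make up 57 of the 366 sites with a step on 1 strand and 1 of the 673 with a step on both.

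Tissue differences were finally read on each strand separately, since the strands come from different reads. Over the 5643 sites, lung versus heart gave 10 called sites on the forward strand (0.177%) and 9 on the reverse strand (0.159%), with 2 called on both in the same direction (0.0354%). Lung versus liver gave 17 (0.301%) and 20 (0.354%), with 9 on both (0.159%), which is 52.9% of the forward and 45% of the reverse list. Heart versus liver gave 17 (0.301%) and 14 (0.248%), with 7 on both (0.124%), or 41.2% and 50% of the lists. Every site called on either strand had a difference of the same sign on the other strand (17 of 17, 28 of 28 and 24 of 24). The smallest difference on the other strand was 22.7, 2.78 and 0.373 points, so the shared sign could rest on a very small value. The share of all included sites with the same sign on both strands is not given here. None of the sites called on either strand was called strand-discordant, against 3.17% of all included sites, and lists this short would hold few at that share. Across all sites the tissue differences of the strands had a correlation of 0.526, 0.531 and 0.592, a description over sites that share libraries and, in part, reads.

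When all CpG cytosines of a strand with enough depth were fitted together, more sites were called. The count on both strands with the same sign was then 10, 15 and 35, which included all 2, 9 and 7 sites above, and 0 were called with opposite signs. In that fit 0.764%, 1.48% and 2.92% of all forward strand cytosines were called for lung versus heart, lung versus liver and heart versus liver, and 0.907%, 1.29% and 2.72% of those on the reverse strand. Of the cytosines of the included sites, 0.532%, 0.656% and 1.28% were called on the forward strand and 0.549%, 0.638% and 1.28% on the reverse strand, below the share of all cytosines in each comparison. With the horse as a block, 0 sites were called on both strands in any comparison, and the only call on either strand was 1 on the forward strand for lung versus liver. Over the fits that left out 1 library, the counts on both strands were 0 to 2, 1 to 8 and 0 to 8. The 3 comparisons share libraries, so their lists are not independent.

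The 18 calls on both strands came from 13 CpGs, and at all 18 no library of either tissue fell within the range of the other on either strand. The calls were chosen for a large tissue difference on both strands, so this only describes them. The share of all included sites without such overlap is not given here. Adjusted p-values below are those of the fit over all cytosines, added after the data were seen, for the forward and then the reverse strand. The moderated quasi-likelihood test over the included sites, which made the calls, gave larger adjusted p-values on both strands at all 18 calls, up to 0.00645. At chr9:30139923 the forward strand was at 82.6%, 81.4%, 82.7% and 86.4% in heart of horses 1 to 4, at 85.0%, 87.0%, 82.7% and 82.9% in lung, and at 42.7%, 29.5% and 35.4% in liver of horses 1, 2 and 4. The reverse strand was at 70.2% to 90.7% in heart, 81.4% to 88.0% in lung and 29.2% to 34.5% in liver. Both strands were thus lower in every liver library than in any other. Lung exceeded liver by 48.5 points on the forward and 53.2 points on the reverse strand (adjusted p = 5.38e-08 and 8.10e-06), and heart exceeded it by 47.4 and 51.8 points.

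Neighbouring CpGs of chromosome 9 did the same, of which chr9:30139951 and chr9:30139969 were picked after their values were seen. At chr9:30139951, chr9:30139969 and chr9:30140211 lung exceeded liver by 40.1, 42.3 and 44.2 points on the forward strand, and by 33.3, 39.1 and 48.4 points on the reverse strand. At chr9:30140211 heart had 87.5% to 90.3% and 87.5% to 93.0% on the forward and reverse strand, and liver 25% to 52.9% and 31.9% to 41.7% (heart minus liver 48.1 and 53.5 points, adjusted p = 5.86e-06 and 1.58e-08). At chr2:79552666, with no other listed CpG within 100 bp, heart had 78.6% to 95.7% and 91.7% to 94.7%, and liver 29.6% to 35.7% and 23.1% to 46.4%. Heart exceeded liver there by 55.7 and 60.1 points (adjusted p = 2.80e-05 and 6.39e-05), and lung exceeded liver by 51.8 and 58.6 points (adjusted p = 4.16e-05 and 0.000864). These were liver-low sites on both strands.

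The other 4 sites that were lower in liver, picked after the values were seen, included some near genes. At chr1:84263369, which the study's site annotation places in an intron of SHLD2, a subunit of the shieldin complex known for its role in the repair of DNA double-strand breaks, lung exceeded liver by 43.0 and 50.8 points. Lung was at 94.1% to 100% and 93.7% to 97.7% there, and liver at 60.8% and 48.0% on the forward and 38.6% and 52.1% on the reverse strand of horses 1 and 4. At chr13:6783098 lung exceeded liver by 38.1 and 48.4 points. At chr12:32939821 and chr12:32939832 heart exceeded liver by 32.7 points each on the forward strand and by 43.0 and 43.7 points on the reverse strand. The nearest annotated position, 22 and 11 bp away, is assigned to PPFIA1, which encodes the scaffold protein liprin-alpha-1. Lung at chr12:32939821 was at 64.5% to 70.5% on the forward strand, above liver at 40% to 54.5% and below heart at 75.5% to 89.1%.

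Lung was the lower tissue of the called comparison at 4 CpGs. At chr12:23012593 and chr12:23012598, placed in an intron of ENSECAG00000037848, lung was lower than liver by -43.8 and -46.4 points on the forward strand and by -36.9 and -38.0 points on the reverse strand (adjusted p = 4.03e-05 and 6.06e-05 forward, 0.000276 and 0.000490 reverse). At chr12:23012598 lung was at 46.4% to 56.7% and 46.2% to 63.0%, heart at 73.3% to 90.8% and 72.3% to 93.3%, and liver at 91.5% to 100% and 87.2% to 94.7%. At chr12:23012593 heart of horse 4 was at 56.25% on the forward strand, within the lung range of 46% to 56.7%. On its reverse strand heart, at 73.8% to 88.9%, lay above lung, at 50% to 65.5%. At chr12:32969371, in an intron of PPFIA1, lung was at 57.7% to 71.9% and 51.6% to 57.1% and heart at 87.5% to 93.7% and 86.4% to 90.5%. Lung minus heart was -27.9 and -33.5 points (adjusted p = 0.000372 and 0.000140). At chr29:19242024 it was -45.9 and -38.9 points (adjusted p = 0.000133 and 0.000147), with lung at 25% to 50% and 27.1% to 44.0%. The test over the included sites gave adjusted p = 0.00457 and 0.00367 at chr12:32969371, and 0.00436 and 0.00376 at chr29:19242024. With the horse as a block, adjusted p was 0.191 on the forward and 0.344 on the reverse strand at either site. Liver at chr29:19242024 lay between, at 46.0% to 47.4% on the forward and 51.1% to 65.6% on the reverse strand, its forward range within that of lung.

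**Figure D5:**
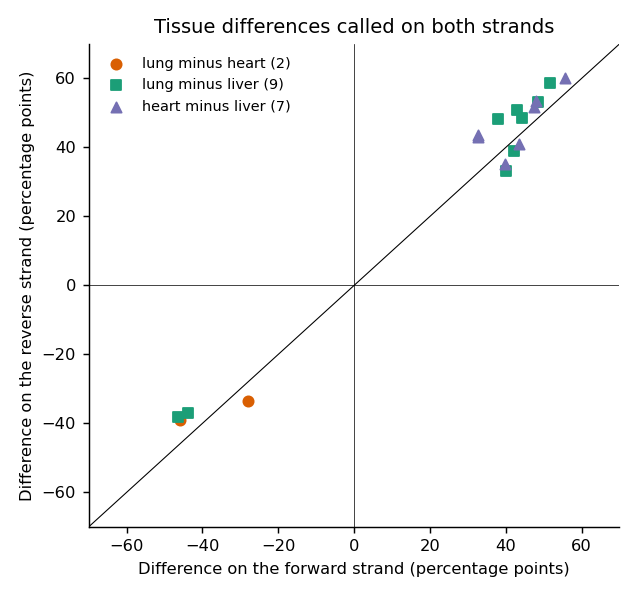
Difference between tissue means on the forward strand (x axis, percentage points) and on the reverse strand (y axis, percentage points) for the 18 calls on both strands, by comparison. Points lie in the lower left or upper right, so the sign is shared by the strands, and the line marks equal differences.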

How the data were processed

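RRBS libraries of heart, lung and liver (n = 4, 4 and 3) were pooled and sequenced in a single pool per the labels, and the authors used uniquely mapped reads. The submitters' processing notes name BSMAP and FastQC, without versions, and EquCab3.0. The deposited tables list, for each CpG cytosine and strand with 5 or more reads, the read count (coverage) and the percent read as C or as T. Methylated reads were rebuilt as coverage times percent C. The files hold no bases or read ends.

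Sites and lists were chosen with earlier results of these data known. Each strand needed 10 reads in a library. Strand and tissue effects were fitted to methylated and unmethylated counts with a logistic quasi-likelihood F test, whose dispersion was moderated with limma 3.58.1 (R 4.3.3) and not allowed under 1, with Benjamini-Hochberg adjustment over the 5643 sites and, as a check, over all CpGs. A call needed an adjusted p below 0.01 and 25 percentage points, the thresholds of the study's methods. Summaries per library were compared with exact permutation tests over libraries. The script was tested on simulated data. Python 3.11.15, numpy 2.4.6, pandas 2.3.3, scipy 1.17.1 and matplotlib 3.10.9 were used.

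Horse numbers name the same animal in each tissue, and deviations of same-numbered libraries from the tissue means correlated at 0.111 to 0.698, against -0.568 to 0.283 for different horses, so the fit with the horse as a block is given beside the results. Libraries of a tissue come from separate animals. Named sites were, per direction, up to 5 strand-discordant sites with the largest difference among those read in all 11 libraries with the same sign in each, up to 4 sites differing between horses, per comparison and direction 2 sites differing in strand difference between tissues (none was called) and 2 called on both strands, and the 2 runs with the most sites. Other sites are said to be chosen after their values were seen. Intervals and limits on single shares cover counting error only. Alternatives were 20 reads, other thresholds, the dispersion fixed at 1 (binomial), deep sites left out, each library as a replicate, the horse as a block and each library or horse left out. The fits over all CpGs, without the 7 windows, without sites with a coverage step on 1 strand and without liver of horse 2, and other definitions of a step, were added after seeing the data. Gene names come from the study's site annotation, within 100 bp.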

Additional observations from a re-analysis of the deposited data

Results flagged for a closer look

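Among 172 groups of 4 libraries, 12 held a library far from the other 3, where 8.6 would be expected by chance (about 1 in 20 groups). The depth-corrected strand difference of heart of horse 1 was 8.68 points, and the other heart libraries had 9.12 to 9.16. On the reverse strand, heart of horse 2 was at 8.11% at chr8:2181693 with 0% in the others, and at 97.0% at chr13:6783098 with 84.2% to 86.0% in the others. Heart of horse 4 was at 91.7% on the reverse strand of chr2:79552666 (others 94.3% to 94.7%) and at 26.7% on that of chr13:23761170 (others 5.71% to 6.67%). Heart of horse 3 was at 89.1% on the forward strand of chr12:32939821 (others 75.5% to 77.8%).

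Lung of horse 4 was at 52.5% on the reverse strand of chr8:14316450 (others 60% to 61%) and at 38.3% on that of chr13:23756730 (others 50.9% to 53.0%). Lung of horse 1 was at 56.0% on the forward strand of chr13:23761191 (others 61.1% to 61.8%). Lung of horse 2 was at 98.1% on the reverse strand of chr2:49100009 with 100% in the others, and at 2.17% on that of chr28:110993 with 0% in the others. Lung of horse 3 was at 97.4% on the reverse strand of chr26:63751 with 100% in the others.

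The strand difference of chr8:2149314 differed between horses by the interaction test, with a range of 26.8 points over the 4 horse means (adjusted p = 0.00782, moderated quasi-likelihood test). Mitochondrial CpGs, which no comparison above used, had reads with C on both strands. The highest forward share was 1.39% in lung of horse 1 (exact 95% interval 1.21% to 1.59%), and the highest reverse share was 2.11% in lung of horse 2 (1.89% to 2.34%). A count of 0 would allow up to 0.0198% and 0.0186% in these libraries. Heart libraries had 0.315% to 0.391% on either strand, and lung and liver libraries 0.516% to 2.11%. Heart also had more mitochondrial reads, 171362 to 374337 per strand against 10518 to 38875 in lung and liver. The part of depth was not tested.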

How the results depend on the processing

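The 179 strand-discordant sites became 46 with 20 reads per strand, 332 with a 10-point and 106 with a 40-point threshold, 69 when all CpGs read on both strands in 2 or more horses were fitted together, and 72 without the 7 windows of 1 Mb; leaving out 1 horse or liver of horse 2 gave 124 to 192. Heart gave 0 to 6 and lung 0 to 53 calls with a library left out, and liver gave 35 with 20 reads against 0. The site differing between horses was lost, giving 0, without the heart, lung or liver libraries. Sites with a tissue difference on both strands for lung versus heart, lung versus liver and heart versus liver numbered 0, 5 and 4 with 20 reads, 10, 15 and 35 with all cytosines fitted together, and 0, 0 and 0 with the horse as replicate block; with 1 library left out they numbered 0 to 2, 1 to 8 and 0 to 8. The low values of the last came without liver of horse 1 (1 and 0) or of horse 4 (2 and 1). The block changed no call of strand by tissue, which stayed at 0. The depth-corrected lung minus heart difference turned from -0.335 to 0.851 with each library's own sites (exact permutation p = 0.229) and 0.142 with 20 reads (p = 0.743). With 1 library left out, lung minus liver ranged from -0.304 to 0.605, and heart minus liver in mean forward minus reverse from -0.187 to 0.0646. In these cases the cause was not tested. Of the 50 values of main results under other settings, 30 were taken as unchanged, and of 104 with a library or horse left out, 82 were. A count was taken as unchanged when it stayed of similar size, which includes counts that stayed at 0. A permutation result was taken as unchanged when it kept its sign and its side of p = 0.05, whatever its size. Under other settings 38 of 62 values were unchanged, covering single named sites and the share called at sites with a step on 1 strand. Single named sites were taken as unchanged when they kept their side of the threshold, and the share when it kept a similar size. With a library or horse left out, single named sites kept their side of the threshold in 120 of 172 values. None changed direction. At 10 reads per strand a level in a single library can take only steps of 10 points.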
